A study of Mus musculus with 4 samples.

Results

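Galectins are lectins that bind beta-galactose sugars through a conserved carbohydrate recognition domain. The family measured here comprised 6 genes, Lgals1, Lgals3, Lgals4, Lgals7, Lgals8 and Lgals9, out of 18193 named genes on the array. Its members were chosen by name, as every probe set annotated with one of these symbols, which gave 8 of 45037 probe sets, and 0 of the 8 named a further gene. The family was chosen with the tumour contrast already known, above all the high Lgals7 signal in tumour cells, so the differences of its members are given as a description without a test.

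Galectins reach the cell surface without a classical signal peptide, cross-link sugar chains on glycoproteins there, and also act inside the cell. Galectin-1 and galectin-7 are prototype galectins with a lone recognition domain that can pair, galectin-3 is the chimera type with a long flexible tail, and galectin-4, galectin-8 and galectin-9 carry a pair of domains in tandem. In the thymus, galectin-1 of stromal cells binds CD45 and CD43 on immature thymocytes and can trigger their death, and galectin-9 can do so too. Galectin-3 is known from macrophages, where it was first described as the Mac-2 antigen, and inside T cells it protects against death. Galectin-4 is a protein of gut epithelium, galectin-7 of stratified epithelia, where p53 can induce it, and galectin-8 marks damaged vesicles for autophagy.

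RNA of DP cells, T-lineage cells with both CD4 and CD8, from mice of WT C57/BLACK6 background was hybridized to 4 Affymetrix mouse expression arrays. Of these, 2 held DP cells of normal thymus with wild-type genotype. The other 2 held DP cells of a peripheral tumour, named thymoma in the labels, that over-expresses Notch1-IC, the signalling fragment of the receptor Notch1, with the genotype label T-ALL (T-cell acute lymphoblastic leukaemia). The sample type label describes all 4 as tumour cells, against the titles, sources and genotypes of the 2 normal samples. The sources used here do not give how Notch1-IC was introduced, which cells express it, or the age and number of the mice. Tissue site, peripheral tumour or thymus, cannot be told apart from transformation.

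The replicates may be technical, since the labels do not name separate mice, and p-values then measure only the spread between these samples. Across 10772 probe sets with mean log2 intensity 7 or more, which are not independent replicates, Pearson's r was 0.990 within the normal group, 0.991 within the tumour group and 0.819 to 0.826 for arrays of unlike groups. Background was set per array as the highest of 27 control probe sets for bacterial genes (12.3 to 17.8 intensity units), and 51.0% to 59.0% of probe sets exceeded it. Of 8 measured DP markers, all 8 were above background on all 4 arrays. In limma's fit described below, 6 passed an adjusted p below 0.05 as lower in the tumour, among them Cd4, Cd8a and Rag2. Only Ptcra passed as higher. Over all genes, 11.7% passed as lower and 16.3% as higher. The remaining marker, Cd3e, differed by -0.22 ± 0.11 (log2) and did not pass (limma adjusted p = 0.187). Signal at the 3' end over that at the 5' end, a sign of RNA quality, was 1.20 and 1.28 in normal and 2.46 and 2.53 in tumour arrays for beta-actin, and 0.897 and 0.912 against 1.84 and 1.85 for Gapdh. The mean signal of 18S ribosomal RNA probe sets was 1342 and 1256 in normal and 4347 and 4323 in tumour arrays. The part of these in the differences below was not tested. In bulk RNA, fewer cells of a type and less RNA per cell cannot be told apart.

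The galectins did not move as a block. Lgals7 and Lgals3 went from at or near background in normal DP cells to clear signal in the tumour, Lgals1 and Lgals9 were bright in normal DP cells and lower in the tumour, Lgals8 was nearly level on its more intense probe set, and Lgals4 was at background throughout. The median difference over the 8 probe sets was -0.46 on the log2 scale, with a range from -3.18 to 8.02, beside a median of -0.02 over all probe sets. In limma's fit with a trended and robust variance prior, 2 of the 8 probe sets passed an adjusted p below 0.05 as higher and 3 as lower in the tumour, beside 11.3% and 11.5% of all probe sets and 22.8% in either direction. The groups did not overlap on any of the 8 probe sets (3 higher and 5 lower in the tumour), beside 56.7% of all probe sets (27.6% higher, 29.1% lower). Nothing is read from these counts, because the family was chosen with this contrast known. Under limma's default prior, 0 of 45037 probe sets passed (0.0%), with 11337 at an unadjusted p below 0.05 (25.2%). With 1 probe set per gene and the default prior, 1160 of 18193 genes passed (6.38%), among them Lgals3 and Lgals7 as higher and Lgals1 and Lgals9 as lower.

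**Figure D1:**
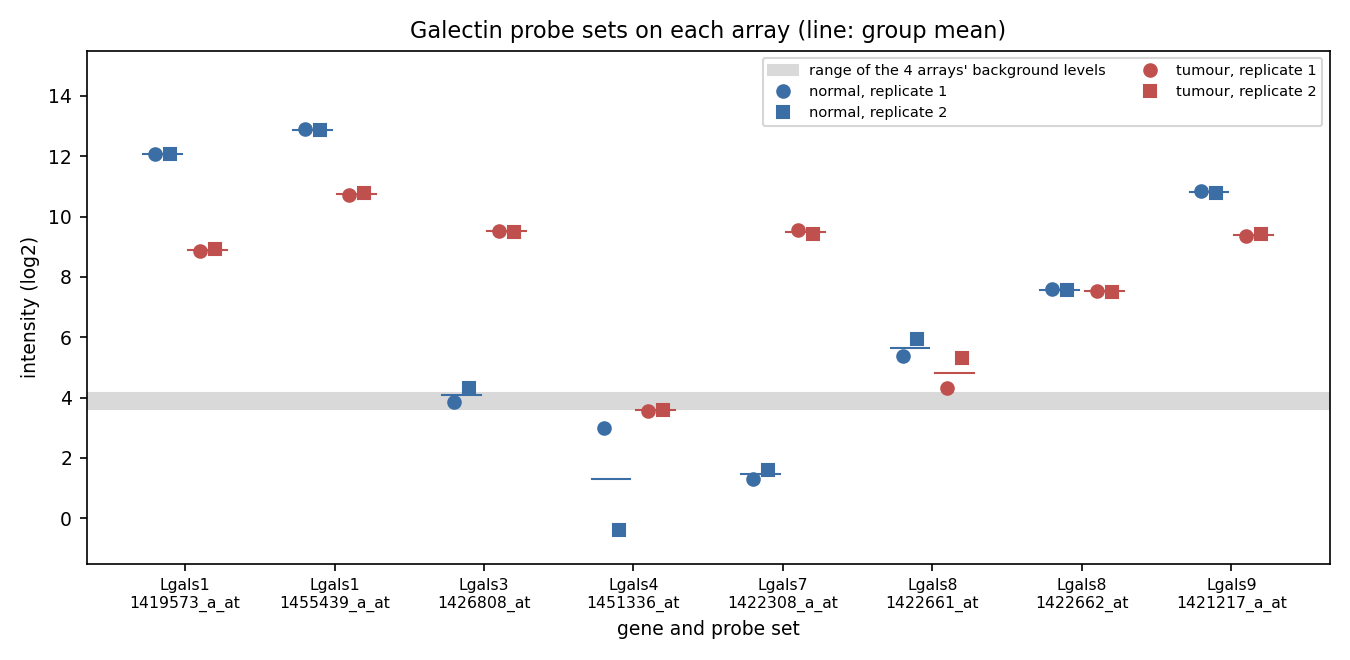
Intensity (log2, vertical axis) of each galectin probe set on the 2 normal (blue) and 2 tumour (red) arrays, with the group mean as a line and the range of the 4 background levels in grey. Lgals7 lies below the grey band on both normal arrays and at 9.41 and 9.55 in the tumour, Lgals1 and Lgals9 are lower in the tumour, and all Lgals4 points lie at or below the band.

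Lgals7 had the widest difference of the family. Its probe set 1422308_a_at, of a type that matches several transcripts of the same gene, read 2.47 and 3.05 intensity units on the normal arrays and 749 and 679 on the tumour arrays. Both normal values lay below background and both tumour values far above it. Raising the normal arrays to their background levels, Lgals7 was at least 50.9-fold higher in the tumour. The fitted difference of 8.02 ± 0.30 on the log2 scale (limma SE, n = 2 arrays per group) rests on normal values below background and is no measure of the fold. Genes with the most similar pattern over the 4 arrays, by Euclidean distance between log2 values centred on each gene's mean and out of 6910 candidates, were Susd4 (distance 0.544), Adam19 (0.580) and Khdc1a (0.697). Both normal arrays of Lgals7, Susd4 and Khdc1a lay below background, so these distances rest in part on values with no measured level. With 2 close arrays per group, such a distance mostly compares the size of the difference between tumour and normal. Here and below, it does not show that genes are regulated together.

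Lgals3 read 14.5 and 20.2 on the normal arrays and 728 and 726 on the tumour arrays with its probe set 1426808_at. Normal replicate 1 lay below its background of 15.95 and normal replicate 2 above its background of 12.3, so the normal level is at the edge of detection. The difference was 5.41 ± 0.21 (log2, limma SE, n = 2 per group), a 42.5-fold higher signal in the tumour. The nearest patterns were those of Trgv1, a gamma chain variable segment of the T-cell receptor (distance 0.228), Tgm2, a transglutaminase (0.269), and Wdr25 (0.272), where Tgm2 lay below background on both normal arrays.

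The promoters of the pair of galectins that were high in the tumour and of Lgals9, which was low, are shown so that their bases can be set beside these values. RefSeq sequences of build GRCm38.p6 were matched by symbol for 5 of the 6 galectins, all but Lgals1, and the 250 bases before the table's start site were searched on both strands for 4 motifs of 6 letters. The first, TGGGAA, is the core bound by RBPJ, the DNA-binding partner of Notch1-IC. The second, CACGTG, is an E-box, a motif bound by Myc. The third, GGGCGG, is a GC box. The last, TATAAA, is a TATA box. Capitals mark matches, with strands as transcribed: Lgals3 is chr14:47373610-47373859 on the plus strand, Lgals7 is chr7:28864136-28864385 on the plus strand and Lgals9 is chr11:78984925-78985174 on the minus strand.
Lgals3: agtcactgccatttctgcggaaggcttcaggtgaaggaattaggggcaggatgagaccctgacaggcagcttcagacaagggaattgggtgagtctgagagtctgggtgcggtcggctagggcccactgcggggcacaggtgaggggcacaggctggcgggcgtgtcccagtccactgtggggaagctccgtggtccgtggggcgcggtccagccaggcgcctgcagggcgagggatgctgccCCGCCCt
Lgals7: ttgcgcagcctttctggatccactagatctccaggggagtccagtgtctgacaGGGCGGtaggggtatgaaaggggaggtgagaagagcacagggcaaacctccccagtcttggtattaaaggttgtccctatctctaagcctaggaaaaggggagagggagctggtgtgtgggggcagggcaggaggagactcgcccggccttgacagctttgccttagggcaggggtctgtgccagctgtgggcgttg
Lgals9: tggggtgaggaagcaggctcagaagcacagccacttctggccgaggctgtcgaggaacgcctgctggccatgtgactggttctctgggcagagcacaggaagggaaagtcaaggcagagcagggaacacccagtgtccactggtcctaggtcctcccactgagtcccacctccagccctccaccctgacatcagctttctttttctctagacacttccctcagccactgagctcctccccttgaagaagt

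The Lgals3 window held 1 GC box, on the opposite strand and 7 bases before the start, and the Lgals7 window held 1, 197 bases before the start. A GC box stood in 32.7% of 32851 promoter windows of the same length. None of the 5 windows held the RBPJ core, the E-box or the TATA box, beside 21.6%, 6.02% and 12.4% of all windows, which says only that these letters are not in these 250 bases. The Lgals3 window had 13 CpG dinucleotides and 66.0% GC, beside medians of 6 and 52.4% over all windows. Lgals7 had 5 CpG, Lgals8 had 4, Lgals9 had 3 and Lgals4 had 2. The galectins that were high in the tumour did not share a CpG-rich window.

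The widest difference in the other direction was that of Lgals1. On probe set 1419573_a_at it read 4312 and 4296 in normal and 463 and 484 in tumour arrays, a difference of -3.18 ± 0.08 (log2, limma SE, n = 2 per group), or 9.09-fold lower. On probe set 1455439_a_at it read 7616 and 7461 in normal and 1696 and 1781 in tumour arrays, a difference of -2.12 ± 0.06, or 4.34-fold lower. Both probe sets had the normal arrays above the tumour arrays, and replicates differed by at most 0.07. The sizes differed by 1.07 on the log2 scale, more than that spread, so how far Lgals1 was lower depends on the probe set. All 4 tumour values remained well above background, and RefSeq also lists a pseudogene of Lgals1 whose transcripts these probes may bind. On its more intense probe set, its nearest patterns were those of Cd4, the co-receptor that helps define DP cells (distance 0.035), Pisd-ps3 (0.069) and H2aw (0.082). Cd4 differed by -2.09, so the distance mainly reflects a fall of like size.

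Lgals9, a galectin that binds the inhibitory receptor Tim-3 (Havcr2), read 1845 and 1780 on the normal arrays and 655 and 685 on the tumour arrays with probe set 1421217_a_at. The groups were apart, with replicate gaps of 0.05 and 0.07 on the log2 scale. The difference was -1.44 ± 0.08 (log2, limma SE, n = 2 per group), or 2.71-fold lower in the tumour. Its nearest patterns were those of Arpp21, a gene known from DP thymocytes (distance 0.024), Sh2d1a, the adaptor SAP of T and NK cells (0.044), and Gnpda2 (0.045).

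Lgals8 differed little on its more intense probe set. Probe set 1422662_at read 192 and 191 in normal and 184 and 183 in tumour arrays, a difference of -0.06 ± 0.14 (log2, limma SE, n = 2 per group). The dimmer probe set 1422661_at read 41.5 and 61.6 against 19.9 and 39.6, a difference of -0.85 ± 0.42, with replicate gaps of 0.57 and 0.99. On the dimmer one the gap between the tumour replicates was wider than the difference between the groups. The nearest patterns to the more intense probe set were those of Pi4ka, Kif18b and Zbp1, with distances of 0.012 to 0.020.

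Lgals4 was the member without signal. Its probe set 1451336_at read 8.07 and 0.77 in normal and 11.7 and 12.1 in tumour arrays, all at or below the background of their array, and no fold is given. The other gut epithelium markers were likewise dim, with Vil1, Cdx1 and Cdx2 at or below background on all 4 arrays. Lgals6, a near-copy of Lgals4 in some mouse strains, has no probe set annotated with its name, and the Lgals4 probe set may bind its transcripts.

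**Figure D2:**
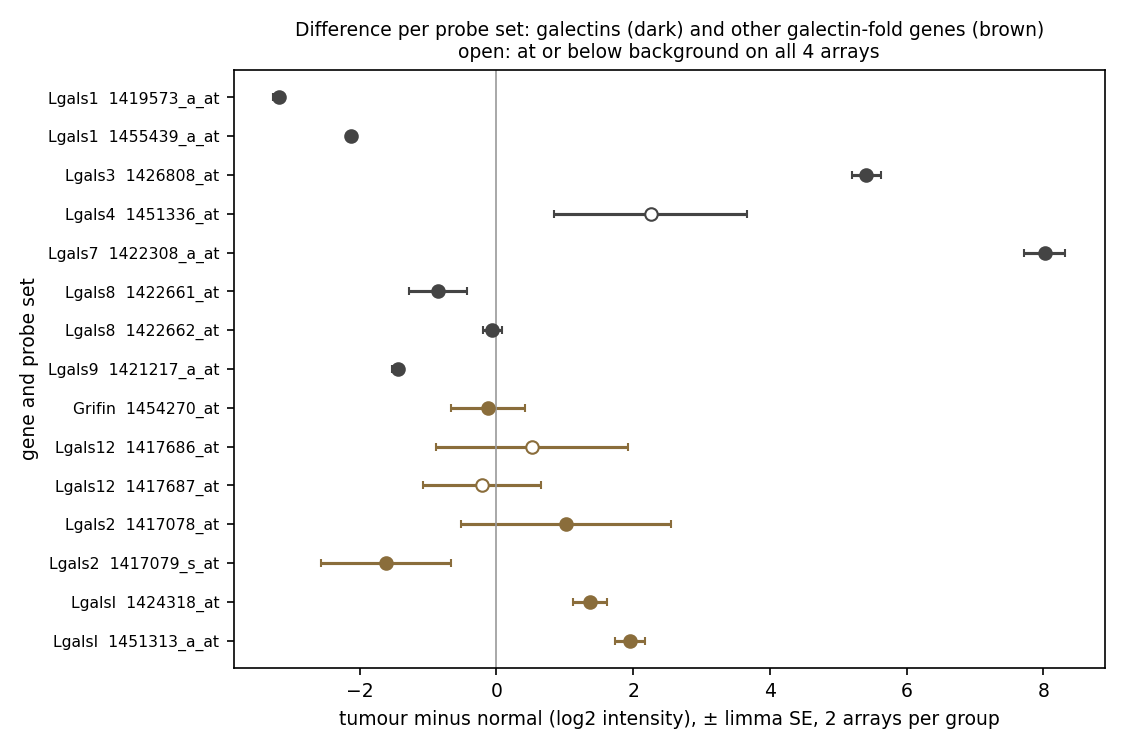
Difference of tumour minus normal (log2 intensity, horizontal axis) with limma's SE for each galectin probe set (dark) and each probe set of other galectin-fold genes (brown), where open points are at or below background on all 4 arrays. Lgals7 (8.02) and Lgals3 (5.41) lie at the right, the Lgals1 probe sets (-3.18 and -2.12) at the left, and dim probe sets have wide error bars.

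Scaling to spiked controls kept every direction in the family. The bacterial BioB, BioC and BioD controls, added at hybridization, were 0.601 higher (log2) in the tumour arrays. Scaling to them moves the median of all genes from 0.09 to -0.51 and the share of higher among all called probe sets from 49.5% (5084 higher, 5189 lower) to 15.2% (2074 higher, 11539 lower). Under that scaling Lgals7 differed by 7.42, Lgals3 by 4.81, Lgals1 by -3.79 and -2.72, and Lgals9 by -2.04. The Lgals8 probe sets then differed by -0.66 and -1.45, and the count past the threshold was 2 higher and 5 lower. Relative to the shifted median, Lgals8 on its more intense probe set thus stayed close to the typical gene.

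Beyond the 6 members, 4 other genes of the galectin fold were measured, and 1, Lgalsl, passed the test. Lgalsl, the galectin-related protein whose domain has lost sugar binding, rose by 1.96 ± 0.22 on probe set 1451313_a_at (log2, limma adjusted p = 0.000159, n = 2 per group), from 39.2 and 38.0 in normal to 139 and 163 in tumour arrays, a 3.90-fold difference. Its second probe set, 1424318_at, rose by 1.37 ± 0.25 (adjusted p = 0.00269). Lgals2, a prototype galectin of the gut, Lgals12, a galectin of fat cells, and Grifin, a galectin-like protein of the lens, did not pass on any probe set (adjusted p from 0.298 to 0.918). Both Lgals12 probe sets were at or below background on all 4 arrays.

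Galectins were then set beside the enzymes that build or cap their sugar ligands. N-glycan branching by Mgat enzymes and extension with galactose by B4galt1 create galectin ligands, core O-glycans are built by C1galt1 and Gcnt1, and St6gal1 caps galactose with sialic acid, which blocks galectin-1 binding. Of 21 such genes, all measured, 3 rose and 4 fell in limma's fit, beside 16.3% of all genes that rose and 11.7% that fell, and their median difference was -0.18, beside 0.09 over all genes. B4galt1 rose by 1.39 ± 0.10 (log2, limma adjusted p = 9.03e-06). Gcnt1, named after its values were seen, since its level is below that of the naming rule, was at least 2.56-fold higher (adjusted p = 0.0117), with both normal arrays below background. Mgat4b, named on the same footing, rose by 1.16 ± 0.29 (adjusted p = 0.0171).

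Among the enzymes that fell, C1galt1, which makes core 1 O-glycans, fell by 0.72 ± 0.11 (limma adjusted p = 0.000818), and both its other probe sets passed as lower. Its chaperone C1galt1c1 fell by 0.36 ± 0.11 (adjusted p = 0.0430), St6gal1 by 0.45 ± 0.13 (adjusted p = 0.0314) and B3gnt2, which extends poly-N-acetyllactosamine, by 0.38 ± 0.09 (adjusted p = 0.0102). On the dimmer second probe set of each, C1galt1c1 was level (adjusted p = 0.998). There St6gal1 differed by -0.82 ± 0.49 (adjusted p = 0.307) and B3gnt2 by -0.40 ± 0.18 (adjusted p = 0.170), and neither passed. The small falls did not hold without single arrays. Without normal replicate 2, the list had 2 genes higher and 1 lower, with adjusted p = 0.204 for St6gal1, 0.245 for C1galt1c1, 0.0669 for B3gnt2 and 0.107 for Mgat4b. Without tumour replicate 1, it had 1 higher and 1 lower, with adjusted p = 0.140 for St6gal1, 0.191 for C1galt1c1, 0.112 for B3gnt2, 0.148 for Gcnt1 and 0.0927 for Mgat4b. Without tumour replicate 2, St6gal1 (adjusted p = 0.198), C1galt1c1 (0.147) and Mgat4b (0.117) were lost. The branching enzymes Mgat1, Mgat2 and Mgat5, of which Mgat5 is best known for making galectin-3 ligands, differed by -0.24 ± 0.11, -0.18 ± 0.10 and -0.26 ± 0.12, and none passed (adjusted p from 0.161 to 0.254). With spike scaling the list had 2 higher and 13 lower genes.

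Of 20 counter-receptors and binding partners of galectins, all measured, 9 rose and 5 fell, beside 16.3% and 11.7% of all genes, with a median difference of 0.51, beside 0.09 over all genes. Lag3, an inhibitory receptor bound by galectin-3, rose by 1.79 ± 0.29 (log2, limma adjusted p = 0.00129), from 49.6 and 33.8 in normal to 116 and 174 in tumour arrays. Lamp2, a lysosomal membrane protein decorated with galectin-3 ligands, rose by 1.27 ± 0.10 (adjusted p = 1.85e-05), and its 3 other probe sets passed as higher too. Spn, the CD43 receptor of galectin-1, rose by 0.79 ± 0.12 on its more intense probe set (adjusted p = 0.000839), but its other probe set differed by 0.24 ± 0.15 and did not pass (adjusted p = 0.330). Pdia4, a relative of the disulphide isomerase that binds galectin-9, rose by 0.73 ± 0.13 (adjusted p = 0.00264). Lgals3bp, the secreted binding protein of galectin-3, rose by 0.70 ± 0.14 (adjusted p = 0.00515). Cd7, the galectin-1 receptor best known for T-cell death, read 11.04 and 19.98 in normal and 140 and 79.0 in tumour arrays and rose by 2.82 ± 0.42 (adjusted p = 0.000802). On normal replicate 1 Cd7 lay below the background of 15.95, so this size rests in part on a value with no measured level. Mertk, a receptor for engulfment of dying cells that macrophages also carry, was at least 4.45-fold higher (adjusted p = 0.00227), with both normal arrays below background. Lgals3bp, Cd7, Mertk, Lamp1 (0.53 ± 0.08) and Itgb1 (0.49 ± 0.13) were outside the naming rule and were named after their values were seen. Itgb1, an integrin chain, passed with all 4 arrays (adjusted p = 0.0210) but not without any of them (0.0654 to 0.125). With spike scaling, Spn (0.19), Pdia4 (0.13) and Lgals3bp (0.09) stayed higher but no longer passed. That scaling lowers each difference by 0.601, which is more than the 0.53 of Lamp1 and the 0.49 of Itgb1. Lamp1 and Itgb1 thus changed sign, and the list had 4 higher and 8 lower genes.

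The 5 that fell were Cd69, Tnfrsf25, Itga4, Cd2 and Thy1. Of these, Tnfrsf25 was below the level of the naming rule and was also named outside it. Cd69, an activation antigen bound by galectin-1, fell by 1.85 ± 0.18 (limma adjusted p = 5.47e-05), Cd2 by 0.44 ± 0.08 (adjusted p = 0.00362, and 0.0574 without tumour replicate 1) and Thy1 by 0.42 ± 0.05 (adjusted p = 0.000296). Itga4, an integrin chain, fell by 1.18 ± 0.12 on its most intense probe set (adjusted p = 6.74e-05), but another of its probe sets passed as higher, at 0.95. Tnfrsf25, a receptor that galectin-9 can engage, was at least 2.09-fold lower with both tumour arrays at background (adjusted p = 0.0398, and 0.205, 0.223 and 0.0591 without normal replicate 1, normal replicate 2 and tumour replicate 2). Ptprc, the CD45 receptor of galectin-1, was bright in both groups and differed by -0.09 ± 0.09, and Havcr2, the Tim-3 receptor of galectin-9, was above background on 1 tumour array only. Neither passed (adjusted p = 0.580 and 0.575).

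**Figure D3:**
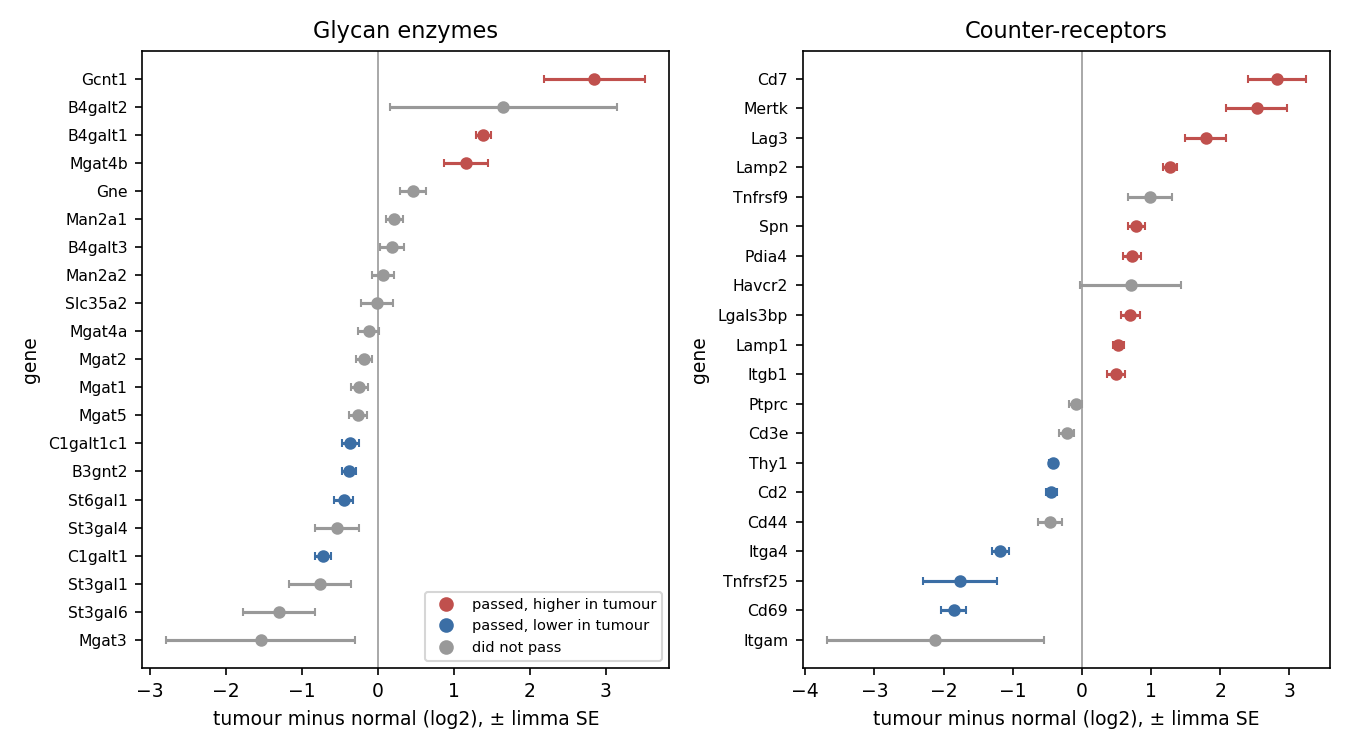
Difference of tumour minus normal (log2, horizontal axis) with limma's SE for 21 glycan enzymes (left) and 20 galectin counter-receptors (right), with 1 probe set per gene and 2 arrays per group. Red points passed as higher, blue as lower and grey did not pass, which gives 3 and 4 enzymes and 9 and 5 counter-receptors.

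Markers of other cells that make galectins moved in part with the members. The counts of markers stand beside 16.3% of all genes that passed as higher and 11.7% as lower. Beside Lgals3, markers of macrophages and monocytes were higher: 7 of 10 passed as higher (5 to 8 without single arrays) and 0 as lower, and their summed intensity was 114 and 151 in normal and 1867 and 2046 in tumour arrays. All 8 neutrophil markers rose (5 without tumour replicate 1 and 5 without tumour replicate 2), with sums of 182 and 229 against 2130 and 2205. Csf1r, the CSF1 receptor of macrophages, read 20.5 and 17.9 in normal and 550 and 625 in tumour arrays. By contrast, Cd14, Cd68 and Fcgr1 did not pass (limma adjusted p = 0.870, 0.188 and 0.605). The part of such cells in the Lgals3 signal was not tested. Of 5 measured dendritic markers 1 rose and 0 fell, with sums of 50.6 and 65.1 against 89.2 and 145.

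Beside Lgals7, 2 of 8 keratinocyte and thymic epithelium markers rose, Krt5 and Krt18, and 1, Epcam, fell, beside 16.3% and 11.7% of all genes. Without normal replicate 2, 0 rose and 0 fell, and without tumour replicate 2, 0 rose and 1 fell. Their sums were 163 and 168 in normal and 190 and 213 in tumour arrays. Krt14, Trp63 and Sfn, which define stratified epithelium, were at or below background on all 4 arrays, and Krt5 read 31.7 and 26.8 in normal and 56.6 and 65.7 in tumour arrays. Krt18 read 23.3 and 14.02 in normal and 59.8 and 64.55 in tumour arrays, and Krt8 read 8.93 and 12.7 against 29.0 and 30.3 and did not pass (limma adjusted p = 0.0827). The part of such cells in the Lgals7 signal was not tested. Beside Lgals1, which fibroblasts and endothelium also make, 0 of 6 fibroblast markers passed, with sums of 22.6 and 31.9 against 69.9 and 72.4. Col1a1, Dcn and Lum were at or below background on all 4 arrays, and 0 of the 6 exceeded it on both normal arrays. Of 5 endothelial markers 1, Pecam1, fell (limma adjusted p = 0.00857), beside 11.7% of all genes. This call did not hold without normal replicate 1, tumour replicate 1 or tumour replicate 2. The endothelial sums were 252 and 354 against 194 and 202. Most of each was Pecam1, which read 302 and 229 in normal and 155 and 156 in tumour arrays. Kdr and Emcn were at or below background on all 4 arrays. Of 4 B cell markers 2 fell, Cd79b and Ighm, beside 11.7% of all genes, with sums of 4740 and 5382 against 2553 and 2738. Most of each sum was Ighm, which read 5040 and 4425 in normal and 2662 and 2463 in tumour arrays. Cd79a was at or below background on all 4 arrays, and Ms4a1 was above it on 1 tumour array only. Of 4 gut epithelium markers, 0 passed.

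**Figure D4:**
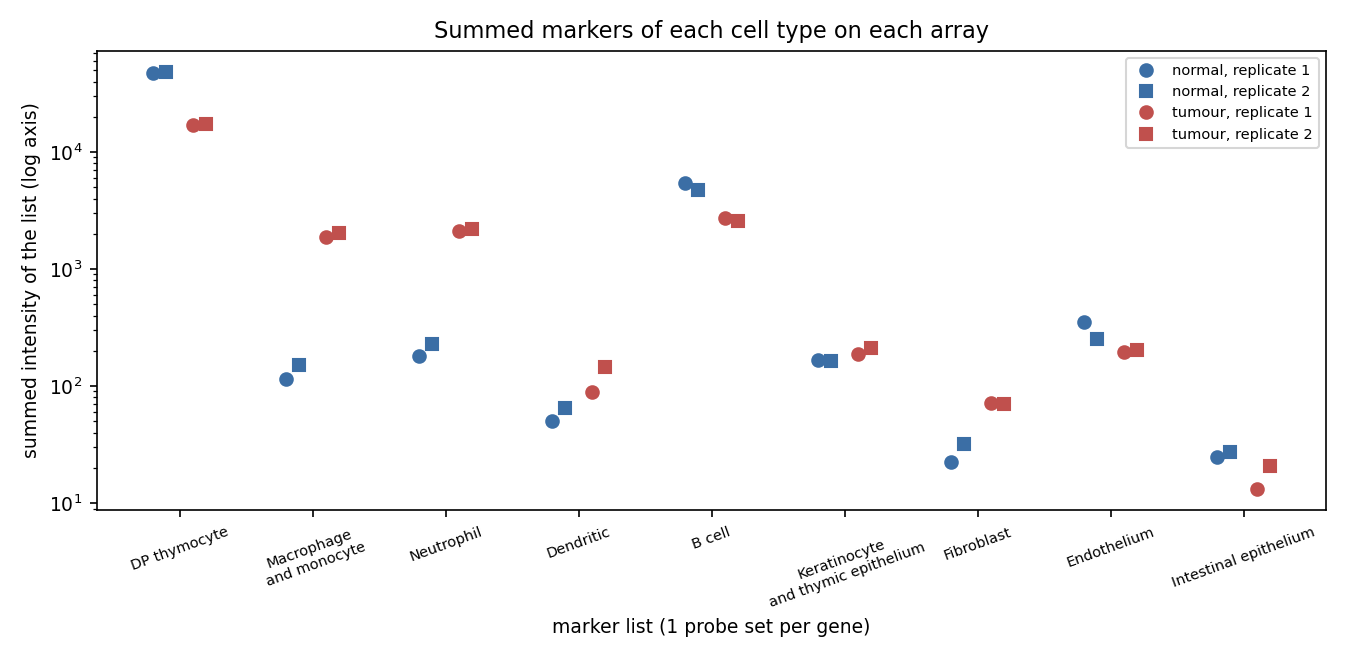
Summed intensity (vertical log axis) of the markers of each cell type on the 2 normal (blue) and 2 tumour (red) arrays, with 1 probe set per gene. Macrophage and neutrophil sums are at least 1867 in the tumour against at most 229 in normal arrays. The DP sums are lower in the tumour. The sums of keratinocyte and thymic epithelium markers lie between 163 and 213 on all 4 arrays.

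Genes next to the galectins on the chromosome were compared to see whether neighbours moved with them. The 3 protein-coding genes on either side of each member gave 30 neighbours, of which 27 were measured, and 7 rose and 4 fell, beside 28.0% of all genes that passed in either direction. Without single arrays, 5 to 6 rose and 1 to 2 fell. Lgals4 and Lgals7 stand side by side on chromosome 7 with 0 protein-coding genes between them in RefSeq's order, yet only Lgals7 had signal. On its other side, Capn12, a calpain protease, differed by 1.52 ± 0.82 and did not pass (limma adjusted p = 0.249), and Actn4, an actin cross-linker, fell by 0.31 ± 0.09 (adjusted p = 0.0288, and 0.0697 to 0.214 when any array was left out). Ech1, the neighbour of Lgals4 and an enzyme of fatty acid breakdown, fell by 1.02 ± 0.11 (adjusted p = 0.000114). Hnrnpl, the gene beyond Ech1, rose by 0.64 ± 0.07 (limma adjusted p = 0.000111). Around Lgals3, Mapk1ip1l rose by 0.60 ± 0.09 (adjusted p = 0.000660) and Dlgap5, a spindle protein, differed by -0.40 ± 0.13 (adjusted p = 0.0595). Around Lgals1, the 5 measured neighbours differed by -0.34 to 0.40. Around Lgals9, Ksr1, a scaffold of the MAP kinase path, rose by 1.22 ± 0.20 (adjusted p = 0.00135) and Nos2 was below background on all 4 arrays. No neighbour that was not itself a galectin differed by as much as Lgals7, Lgals3 or Lgals1.

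**Figure D5:**
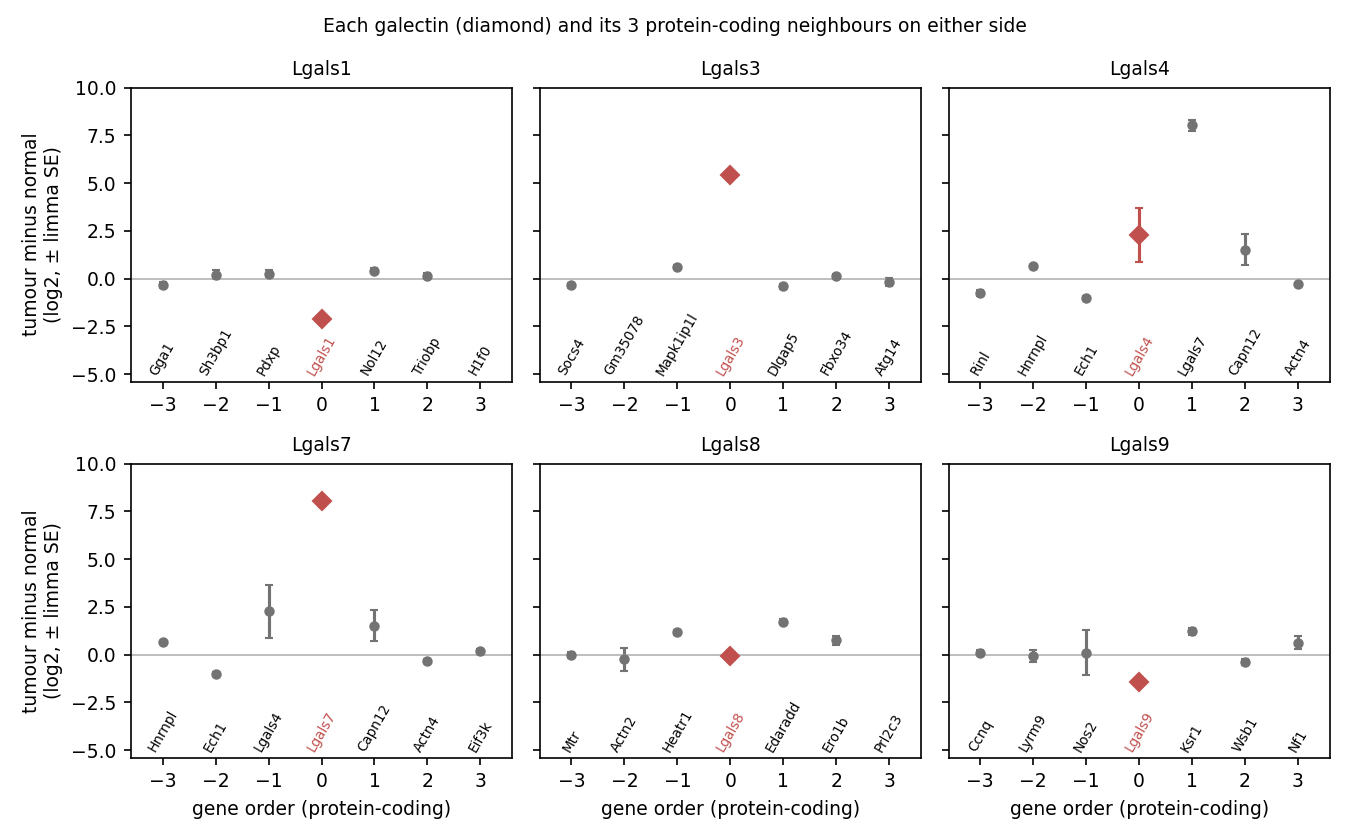
Difference of tumour minus normal (log2, vertical axis) with limma's SE for each galectin (diamond, its most intense probe set) and its 3 protein-coding neighbours on either side in gene order. Lgals7 (8.02) and Lgals3 (5.41) stand far above their neighbours, and Lgals1 (-2.12) and Lgals9 (-1.44) below theirs.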

How the data were processed

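The deposited values are linear intensities of 45101 probe sets on each array, between 0.08 and 19270. The submitters' processing notes name RMA without a version. RMA rarely yields intensities under 1, as found here, and the summarisation of probes is not settled. The labels' protocols give 100 ng of total RNA per sample.

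Log2 was taken with no offset and no filter. The members and lists were chosen with earlier results of these data known. Limma 3.58.1 (lmFit, eBayes with trend and robust) in R 4.3.3 was fitted to 45037 probe sets, leaving out 64 controls, and adjusted by Benjamini-Hochberg at 0.05. The trended prior (median 7.27 prior degrees of freedom beside 2 residual ones) was used because replicate spread depends on level: the median SD of log2 values was 1.31 among the dimmest 25% of probe sets and 0.102 among the brightest 25%. Under the default prior 0 probe sets passed. Of the probe sets, 34945 had 1 symbol, 932 several and 9160 none in GEO's platform annotation. In lists, a gene is its probe set with the highest mean, among 18193 genes.

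Named list genes were, per list and direction, the up to 4 largest differences that passed, had groups apart and had log2 intensity 7 or more on average in the higher group, and all other galectin-fold genes. Where a group lay at or below background on both arrays, a fold is "at least N-fold", against that group raised to its background. Chromosomal neighbours were taken by position, a comparison added after values were seen. Alternatives covered scaling, offset, dim filters, prior, threshold, probe set class, replicate block and leaving out each array. The precision is limited by the number of arrays.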

Additional observations from a re-analysis of the deposited data

How the results depend on the processing

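Of 15 alternatives to 8 galectin differences, 116 comparisons could be made and all 116 kept their sign, and 98 moved by less than the replicate SD. Many of these outcomes were fixed in advance. Another prior, threshold, dim filter, probe set class or replicate block cannot move the difference of a galectin probe set. Only the changes of scaling, the offset and the left-out arrays could do so. Lgals7 ranged from 5.28 (16 units added before log2) to 8.17, Lgals3 from 4.48 to 5.65 and Lgals9 from -2.04 to -1.40. The counts of galectin probe sets that passed, 2 higher and 3 lower, changed with limma's default prior (0 and 0) and with spike scaling (2 and 5). With 1 probe set per gene and the default prior, 2 of 6 galectins passed as higher and 2 as lower. Over all probe sets, the default prior gave 0 and 0, the default prior with 1 probe set per gene 759 higher and 401 lower, and spike scaling 2074 and 11539. Leaving out 1 array gave 3325 to 3983 higher and 3184 to 4386 lower. Among glycan enzymes (3 higher, 4 lower), the default prior gave 0 and 0, 1 probe set per gene with that prior 2 and 0, a threshold of 0.01 gave 1 and 1, spike scaling 2 and 13, and leaving out 1 array 1 to 3 higher and 1 to 4 lower. Among counter-receptors (9 higher, 5 lower), the default prior gave 0 and 0, 1 probe set per gene with that prior 0 and 2, and spike scaling 4 and 8. The 1 other galectin-fold gene that passed gave 0 with the default prior. Of 312 comparisons of 21 named list genes, 308 kept their sign, 57 lost the call and 0 reversed a call. Cd7, Mertk, Lamp1 and Itgb1 were not among these genes. Of the 312 comparisons, those with another prior, threshold, dim filter or replicate block could not change a sign. The labels do not say whether arrays with the same replicate number share more than that number. The differences between replicates 1 and 2 of each group correlated at 0.250 across 10772 probe sets with 2 pairs. Background was 15.95 and 17.8 on the replicate 1 arrays and 12.28 and 13.32 on the replicate 2 arrays. The replicate block gave 6125 higher and 6319 lower probe sets, with 2 and 3 among galectins. Whether replicates of the same number were handled together was not tested. Probe sets near background limit what can be said of Lgals4 and of the fold of Lgals7.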

Other observations

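Some genes gave different answers on different probe sets. For C1galt1, the difference was -0.72 on the most intense probe set and -0.59 on a second, but -2.39 ± 0.38 on probe set 1422772_at (log2, limma adjusted p = 0.00124), where 1 of the 2 tumour arrays was at background. For Itga4, probe set 1436037_at gave -1.18 and probe set 1456498_at 0.95 ± 0.25 (limma adjusted p = 0.0204), both past the threshold. For Lgals2, probe set 1417079_s_at gave -1.61 ± 0.95 and 1417078_at 1.02 ± 1.54, with a gap of up to 3.91 between replicates. Edaradd, a neighbour of Lgals8 and an adaptor of ectodysplasin signalling, rose by 1.73 ± 0.12 (limma adjusted p = 7.38e-06) on a probe set of the class that may bind other transcripts, and Heatr1, a ribosome biogenesis factor on the other side of Lgals8, rose by 1.16 ± 0.11 (adjusted p = 4.89e-05).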
